A study of Mus musculus with 25 samples.

Results

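The genes of the peptide hormone adrenomedullin (Adm) and of the parts of its receptors (Calcrl, Ramp1, Ramp2 and Ramp3) are 5 of the 45706 genes listed for mouse hypothalamus and of the 44674 listed for cultured brain endothelial cells. They were chosen as a known ligand and receptor system, and Adm was selected on its higher values in cells given 10 µM of the glucose transporter inhibitor WZB117. The comparisons with 10 µM are therefore given as a description without a test. The other comparisons (precipitated against whole RNA, diet, 0.5 µM WZB117 and passage) were not the ones that chose Adm. In the cultured cells they still share libraries with that choice. The 0.5 µM comparison uses the same vehicle libraries, and the passage comparisons use all libraries of the cells, those at 10 µM included.

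Adrenomedullin is a secreted vasodilator peptide. It acts on the calcitonin receptor-like receptor, the product of Calcrl, a G protein-coupled receptor that needs a receptor activity-modifying protein (RAMP) at its side to reach the cell surface and to bind its ligand. With the product of Ramp1 the receptor binds mainly calcitonin gene-related peptide, and with the products of Ramp2 or Ramp3 it binds adrenomedullin, so the RAMP present sets the ligand. In blood vessels the pair of Calcrl and Ramp2 is known for keeping the endothelial barrier, and Adm is known as a gene that low oxygen induces.

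RNA sequencing was done on 16 libraries of hypothalamus (bacTRAP, in which ribosomes tagged with green fluorescent protein are precipitated and the RNA bound to them is sequenced) and on 9 libraries of cEND cells, an endothelial cell line from mouse brain. Every mouse carried Slco1c1CreERT2tg/wt and ROSA26lSlL10aGFPtg/wt, that is, a Cre recombinase driven by the promoter of Slco1c1 and switched on by tamoxifen, and the ribosomal protein L10a with a fluorescent tag that Cre turns on, and every mouse had received tamoxifen. Mice of 12 weeks were fed a high-fat diet (HFD) or a control diet (CD) for 3 days, starting 3 weeks after tamoxifen, and the hypothalami of 4 mice (2 female and 2 male) were pooled for each sample. The hypothalamus groups were precipitated RNA after HFD (HFD IP), precipitated RNA after CD (CD IP), and whole lysate after each diet (HFD INPUT and CD INPUT), with 4 pools each. The labels do not say whether INPUT and IP libraries of the same number came from the same pool, and the main fits did not pair them. The cEND groups were vehicle (DMSO) and WZB117, which blocks glucose uptake through Glut1, at 0.5 and 10 µM, each with 1 library at passages 12, 14 and 18 of 1 line. The labels do not say whether cEND libraries came from separate cultures within a passage. The p-values of the passage comparisons therefore measure only the spread between these libraries, which may be technical. The main dose comparisons held no passage term, so their p-values, SEs and intervals also include the spread between passages.

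Library totals were 27.9 to 42.8 M (M, 1e6 counts) in hypothalamus and 27.3 to 41.3 M in cEND cells. Levels of 14 endothelial markers, such as Cdh5 and Cldn5, were read in every group. None of these 14 markers was at 0 in every library of a group, whole lysate included, so presence alone cannot test the origin of precipitated RNA. Their summed level in CPM (counts per 1e6 counts of a library) was 87.4 to 97.9 in HFD IP, 72.8 to 112 in CD IP, 21.4 to 27.4 in HFD INPUT and 17.8 to 21.6 in CD INPUT. The sum of 10 astrocyte markers was far higher, at 22600 to 25100 CPM in HFD IP, 25100 to 28500 in CD IP, 3350 to 3770 in HFD INPUT and 3360 to 4130 in CD INPUT. Precipitated RNA thus carried more of both lists than whole lysate did. All 14 endothelial and all 10 astrocyte markers passed the test upwards, against 41.6 percent of all genes tested. The tanycyte and ependymal list and the choroid plexus list were higher in precipitated RNA as well. In cEND cells the endothelial sum was 6070 to 8410 CPM. In whole tissue and pooled precipitates, fewer cells of a type and less RNA per cell cannot be told apart.

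The promoters of Adm and Ramp3 are shown because those 2 members were the ones higher at 10 µM in every passage. Each is the stretch of 250 bases before the transcription start in RefSeq (build GRCm38.p6), 5′ to 3′ on the gene's strand. Capitals mark the core of the hypoxia response element, searched as ACGTG and GCGTG on both strands (CACGT and CACGC when read on the other strand). The Adm stretch lies at chr7:110627407-110627656 on the plus strand and the Ramp3 stretch at chr11:6658283-6658532 on the plus strand.
Adm: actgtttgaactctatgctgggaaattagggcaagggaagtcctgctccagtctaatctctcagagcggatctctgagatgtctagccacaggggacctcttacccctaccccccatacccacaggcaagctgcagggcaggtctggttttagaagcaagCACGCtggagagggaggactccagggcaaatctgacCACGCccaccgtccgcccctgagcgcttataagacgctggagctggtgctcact
Ramp3: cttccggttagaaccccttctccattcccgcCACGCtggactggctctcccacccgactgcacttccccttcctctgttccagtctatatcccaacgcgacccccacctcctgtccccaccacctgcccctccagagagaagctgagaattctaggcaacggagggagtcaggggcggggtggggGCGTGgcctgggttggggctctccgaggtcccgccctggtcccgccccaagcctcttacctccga
Both stretches held 2 matches, all of the GCGTG form. In Adm they began at positions -90 and -54, and in Ramp3 at -219 and -65, where -1 is the base before the start. The stretches of Calcrl and Ramp1 held 0 matches, and 4 of the 5 members, all but Ramp2, were matched in the RefSeq table. Of the 32851 promoters in the RefSeq table, 38.6 percent held at least 1 match in the same window and 16.7 percent held at least 2, so such matches are common. A match describes the letters only and is no evidence of binding.

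The members lie at separate loci, given here from GENCODE release M21 on GRCm38. Adm spans 110627661 to 110629820 on chromosome 7, Calcrl spans 84330626 to 84425411 on chromosome 2, and Ramp1 spans 91179822 to 91225196 on chromosome 1. Ramp2 and Ramp3 are both on chromosome 11, at 101246028 to 101259546 and at 6658521 to 6677475. The Ramp2 gene model shares 1.1 kb of exon with Vps25, a gene on the same strand, and keeps 2.2 kb outside it. The deposited Ramp2 counts were in part not whole numbers, so reads may have been split between both genes and the values of Ramp2 are uncertain to that extent. Antisense or overlapping transcripts at Adm and Ramp3 had at most 13 and 3 counts in any library.

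Precipitated RNA and whole hypothalamus differed in the RAMPs they held. Ramp1 and Ramp2 were higher in IP than in INPUT, Calcrl and Ramp3 were lower, and Adm did not pass the test in either direction. These are 4 called members of 5, but 83.7 percent of all 17592 genes tested were called in this comparison, so that a call alone sets no member apart, and the sizes below carry the information. For the members below whose IP and INPUT libraries do not overlap, how many of all genes separate in this way was not counted.

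Ramp1, whose product turns the receptor towards calcitonin gene-related peptide, had 95.05, 100.6, 70.8 and 86.1 CPM in HFD IP and 94.4, 89.2, 93.2 and 95.3 CPM in CD IP. Whole lysate held 10.6, 10.3, 10.6 and 11.9 CPM in HFD INPUT and 10.7, 12.0, 13.3 and 13.6 CPM in CD INPUT. The lowest IP library, HFD IP pool 3, was still well above the highest INPUT library. Over both diets Ramp1 averaged 90.6 ± 9.08 CPM in IP and 11.6 ± 1.31 CPM in INPUT (SD, n = 8 each), a log2 fold change of 2.96 ± 0.07 (SE; edgeR adjusted p = 4.19e-22).

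Ramp2, whose product makes the adrenomedullin receptor of vessels, had 7.33, 8.69, 7.48 and 6.03 CPM in HFD IP and 7.24, 8.51, 7.69 and 8.19 CPM in CD IP. INPUT libraries held 1.90, 1.87, 1.42 and 1.45 CPM after HFD and 1.82, 1.52, 2.32 and 1.61 CPM after CD. The groups did not overlap, and Ramp2 averaged 7.64 ± 0.849 CPM in IP and 1.74 ± 0.302 CPM in INPUT (SD, n = 8 each). The log2 fold change was 2.14 ± 0.11 (SE; edgeR adjusted p = 1.16e-15), close to the median of 2.27 over the 14 endothelial markers and below the median of 2.89 over the 10 astrocyte markers, while the median of all genes was -0.02. Vps25, which overlaps Ramp2, was also higher in IP, at 0.96 ± 0.05 on the same scale (SE; edgeR adjusted p = 8.92e-16), and its part in the Ramp2 value was not tested.

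Calcrl, the receptor that all RAMPs share, had 3.21, 2.12, 2.95 and 2.21 CPM in HFD IP and 3.54, 2.63, 2.51 and 2.96 CPM in CD IP. It had 5.86, 5.46, 4.88 and 5.99 CPM in HFD INPUT and 5.53, 4.48, 4.87 and 5.28 CPM in CD INPUT, so that every INPUT library was above every IP library. The means were 2.77 ± 0.489 CPM in IP and 5.29 ± 0.52 CPM in INPUT (SD, n = 8 each), and Calcrl fell by 0.94 on the log2 scale (SE 0.11; edgeR adjusted p = 1.02e-08). All 10 neuronal markers also fell in IP, with a median log2 fold change of -1.35 and sums of 3850 to 5250 CPM in HFD IP and 4320 to 4740 in CD IP, against 10200 to 12200 CPM in HFD INPUT and 10300 to 11600 in CD INPUT. Markers of other cell types fell as well: 10 of 10 of microglia and macrophages (median -3.71), 7 of 10 of oligodendrocytes (-3.38, with 3 upwards), 6 of 7 of fibroblasts and meninges (-2.29, with 1 upwards), 5 of 5 of erythroid cells (-2.38) and 6 of 10 of pericytes and smooth muscle (-0.76, with 2 upwards). The sums of the microglia list were 21.8 to 24.8 CPM in HFD IP and 21.4 to 28.1 in CD IP, against 193 to 206 CPM in HFD INPUT and 169 to 221 in CD INPUT. Other lists rose. Of 7 tanycyte and ependymal markers tested, 5 passed upwards and 1 downwards (median 1.19). Of 5 choroid plexus markers tested, 3 passed upwards and 2 downwards (median 1.61). Of 3 lymphatic endothelial markers tested, 2 passed upwards and 1 downwards (median 0.78), while the sum of that list was lower in IP. Of all genes tested, 41.6 percent passed upwards and 42.1 percent downwards. The part of these lists in the values of Calcrl and Ramp3 was not tested.

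Ramp3, whose product makes the other adrenomedullin receptor, was lower in IP as well. It had 0.880, 1.10, 0.560 and 0.565 CPM in HFD IP and 0.977, 1.04, 0.949 and 0.661 CPM in CD IP, from 21 to 46 counts a library. In INPUT it had 3.73, 6.81, 3.98 and 2.93 CPM after HFD and 6.36, 7.59, 4.91 and 4.84 CPM after CD. No IP library reached an INPUT library, and Ramp3 fell by 2.60 on the log2 scale (SE 0.19; edgeR adjusted p = 1.05e-11).

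Adm itself was scarce in hypothalamus, with 17 to 62.1 counts a library. It had 0.909, 0.763, 0.865 and 1.40 CPM in HFD IP and 1.34, 1.02, 0.983 and 0.693 CPM in CD IP. It had 0.685, 1.45, 0.655 and 1.25 CPM in HFD INPUT and 0.618, 0.732, 0.775 and 0.833 CPM in CD INPUT, so that all groups overlapped. The log2 fold change of IP over INPUT was 0.21 (95% interval -0.22 to 0.63; edgeR adjusted p = 0.357).

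**Figure D1:**
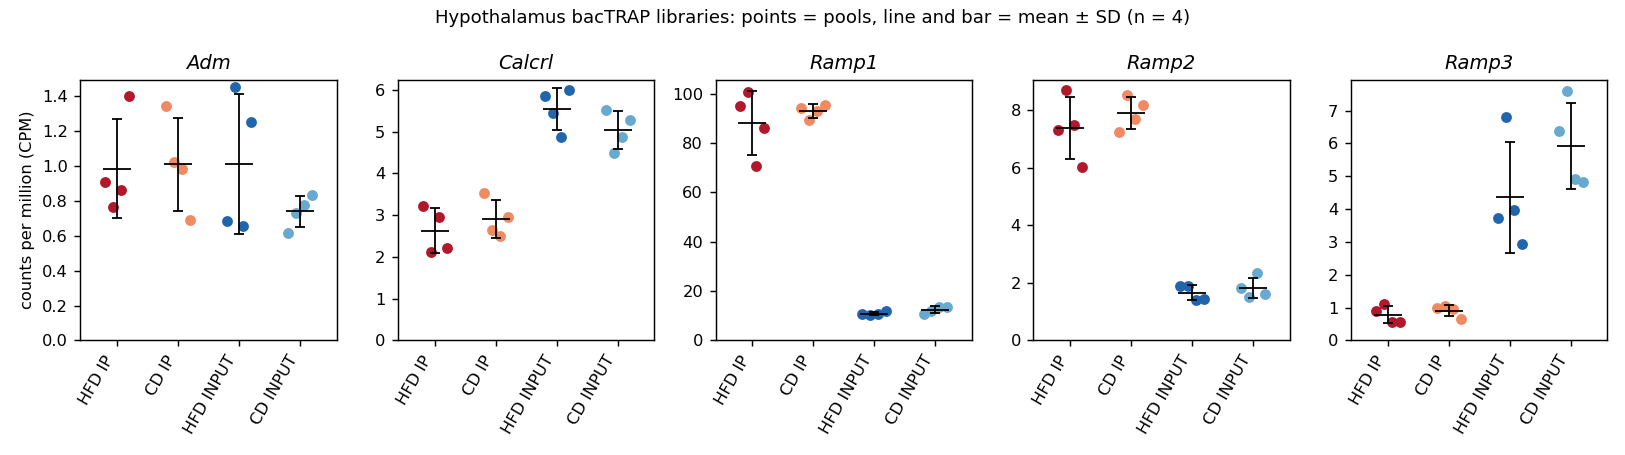
CPM of each member in the hypothalamus libraries, with 1 point per pool and the mean ± SD of 4 pools per group; every axis starts at 0. Ramp1 and Ramp2 lie high in both IP groups, Calcrl and Ramp3 lie high in both INPUT groups, and the Adm points of all 4 groups overlap.

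Levels of different genes were compared per kilobase of exon. In IP the order was Ramp1 at 30.0 ± 3.0, Ramp2 at 2.32 ± 0.257, Adm at 0.616 ± 0.158, Ramp3 at 0.610 ± 0.156 and Calcrl at 0.567 ± 0.1 CPM per kb (SD, n = 8), and the last 3 did not differ beyond their spread. In INPUT the order was Ramp1 at 3.85 ± 0.434, Ramp3 at 3.73 ± 1.18, Calcrl at 1.08 ± 0.107, Adm at 0.541 ± 0.19 and Ramp2 at 0.527 ± 0.0915 CPM per kb (SD, n = 8). Ramp1 and Ramp3 did not differ beyond their spread there, and neither did Adm and Ramp2.

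Ramp1 made up 91.2 ± 1.25 percent of the summed RAMP level per kb in HFD IP, 91.0 ± 0.737 percent in CD IP, 50.4 ± 9.22 percent in HFD INPUT and 46.2 ± 6.76 percent in CD INPUT (SD, n = 4 each). Ramp3 took 1.72 percent in HFD IP and 1.95 percent in CD IP, against 42.6 percent in HFD INPUT and 47.6 percent in CD INPUT. The share of Ramp2 was near 7 percent in all 4 groups, at 7.07, 7.08, 6.98 and 6.21 percent in the same order. Dividing Ramp2 by only its exon outside Vps25 gave it 10.2, 10.3, 10.1 and 9.0 percent. The 3 RAMPs together were 61.9 ± 18.1 times Calcrl per kb in HFD IP and 57.7 ± 7.98 times in CD IP, against 6.44 ± 1.21 times in HFD INPUT and 8.76 ± 1.43 times in CD INPUT.

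**Figure D2:**
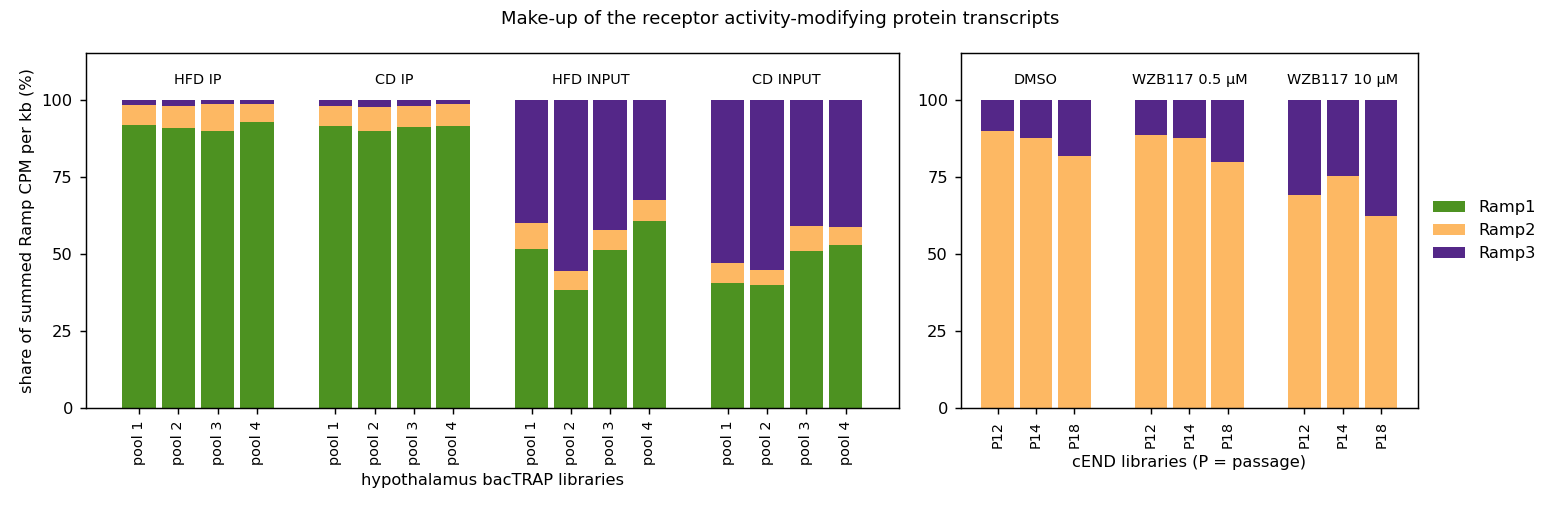
Share in percent of Ramp1, Ramp2 and Ramp3 in their summed CPM per kb, with 1 bar per library; hypothalamus at left, cEND cells at right. Ramp1 fills about 91 percent of every IP bar and is nearly absent from cEND cells, where the Ramp3 share is larger at 10 µM WZB117 than with DMSO in each passage.

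The 3-day high-fat diet gave no call among the 5 members. In precipitated RNA 0.0883 percent of all genes were called, and the log2 fold changes of HFD over CD were -0.01 for Adm (95% interval -0.60 to 0.58), -0.13 for Calcrl (-0.51 to 0.25), -0.06 for Ramp1 (-0.24 to 0.12), -0.09 for Ramp2 (-0.34 to 0.16) and -0.24 for Ramp3 (-0.85 to 0.38). The edgeR adjusted p was between 0.817 and 0.991. The intervals are narrowest for Ramp1 and Ramp2 and leave room for larger differences in the scarce transcripts Adm and Ramp3.

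In whole hypothalamus 0.0355 percent of genes were called. Ramp1 had 10.8 ± 0.741 CPM in HFD INPUT and 12.4 ± 1.35 CPM in CD INPUT (SD, n = 4 each), a log2 fold change of -0.20 (95% interval -0.39 to -0.001) with an edgeR p of 0.0489 that did not pass adjustment over all genes (adjusted p = 0.669). Adm had a log2 fold change of 0.45 (-0.16 to 1.06), carried by pools 2 and 4 of HFD INPUT, and Ramp3 one of -0.45 (-1.04 to 0.15), with HFD INPUT pool 2 inside the range of CD INPUT. Calcrl was at 0.14 (-0.10 to 0.38) and Ramp2 at -0.14 (-0.55 to 0.28). The difference between the diet effects of IP and INPUT was called for 0 percent of 17592 genes by edgeR, with 755 at an unadjusted p under 0.05 and 2 called by DESeq2. For the members it ran from -0.48 (Adm, 95% interval -1.33 to 0.38) to 0.18 (Ramp3, -0.61 to 0.96).

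In cEND cells Calcrl and Ramp2 were the abundant members, with 74.7 ± 28.7 and 72.4 ± 15.8 CPM per kb in DMSO libraries (SD, n = 3), and did not differ beyond their spread. Ramp3 followed at 12.1 ± 6.95 and Adm at 6.0 ± 1.79 CPM per kb, and their ranges over passages overlapped. Within each DMSO library Ramp3 was above Adm, at 6.59 against 5.59 (passage 12), 9.78 against 7.96 (passage 14) and 19.9 against 4.46 CPM per kb (passage 18). Ramp1 was at 0 in 6 of the 9 libraries and had 4 counts in all, and the limit that a count of 0 allows was 0.073 to 0.106 CPM per library. Ramp1 did not pass the filter on low counts and was not tested in these cells, so 4 of 5 members were. The 3 RAMPs together were 1.19 ± 0.317 times Calcrl per kb with DMSO.

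At 10 µM WZB117 Adm was about 5 times as high as with DMSO, and Ramp3 was higher too. With DMSO, 0.5 µM and 10 µM in that order, Adm had 9.06, 9.05 and 57.0 CPM at passage 12, then 12.9, 15.5 and 60.6 CPM at passage 14, and 7.22, 7.33 and 38.8 CPM at passage 18. The 10 µM libraries stood above all others in each passage, and their lowest value was above the highest with DMSO or 0.5 µM. The fold of 10 µM over DMSO within a passage was 6.29, 4.71 and 5.37, and the fitted log2 fold change was 2.42 ± 0.32 (SE). Since these libraries chose Adm, no p is given.

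Ramp3 had 9.09, 11.4 and 38.0 CPM at passage 12 with DMSO, 0.5 µM and 10 µM in that order, then 13.5, 14.2 and 29.8 CPM at passage 14 and 27.5, 31.3 and 69.2 CPM at passage 18. The fold of 10 µM over DMSO was 4.18, 2.21 and 2.52 within passages, and the fitted log2 fold change 1.45 ± 0.50 (SE). The lowest 10 µM library (29.8 CPM, passage 14) was above the highest DMSO library (27.5 CPM, passage 18). It was below 1 library at 0.5 µM (passage 18). For Adm and Ramp3 alike, how many of all genes separate in this way was not counted.

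Calcrl and Ramp2 were not higher at 10 µM in the way Adm and Ramp3 were. Calcrl had 327, 307 and 231 CPM at passage 12 with DMSO, 0.5 µM and 10 µM in that order, then 247, 257 and 221 CPM at passage 14 and 519.5, 594.5 and 407 CPM at passage 18. It was lower at 10 µM than with DMSO in each passage, by folds of 0.706, 0.895 and 0.783, while the groups overlapped across passages. Ramp2 had 194, 212 and 203 CPM at passage 12, 226, 239 and 215 CPM at passage 14 and 296, 296 and 272 CPM at passage 18 in the same order of doses. Its folds of 1.04, 0.951 and 0.918 pointed both ways, and the groups overlapped.

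**Figure D3:**
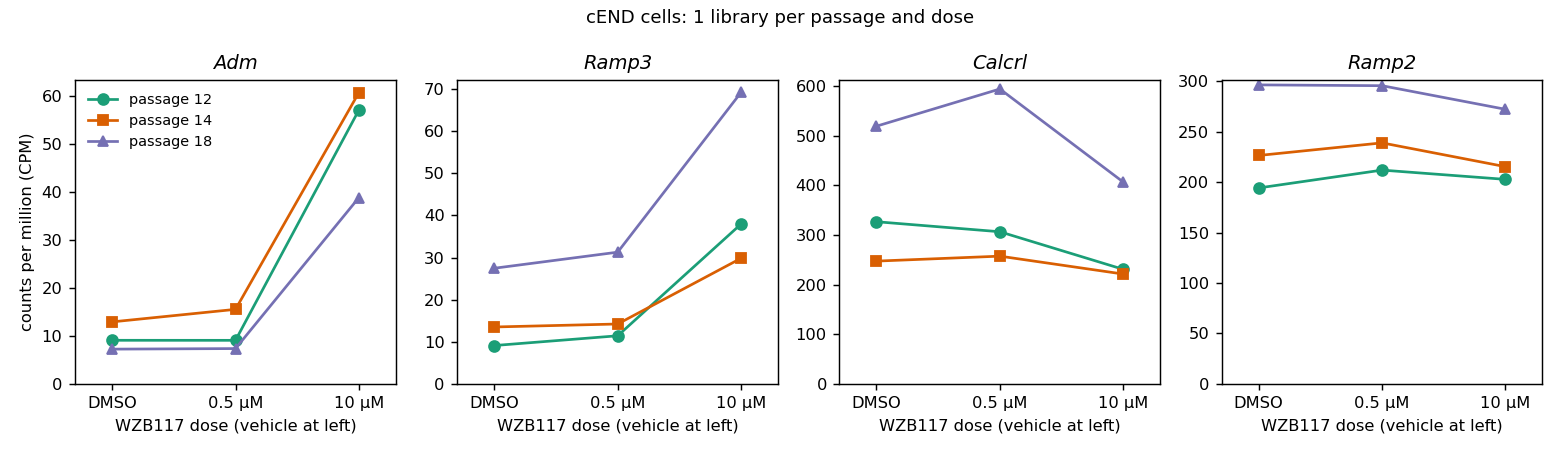
CPM of 4 members in cEND cells by WZB117 dose, with 1 line per passage and 1 library per point; every axis starts at 0. Adm and Ramp3 are higher at 10 µM than with DMSO in passages 12, 14 and 18, Calcrl is lower, and Ramp2 shows no common direction.

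The make-up of the RAMPs differed accordingly. Ramp2 made up 86.4 ± 4.16 percent of the RAMP level per kb with DMSO, 85.3 ± 4.79 percent at 0.5 µM and 68.8 ± 6.46 percent at 10 µM (SD, n = 3 each). The share of Ramp3 was 13.6 ± 4.11, 14.7 ± 4.79 and 31.2 ± 6.46 percent in that order of doses. With Ramp2 divided by its exon outside Vps25 the Ramp3 shares were 9.5, 10.3 and 23.3 percent. These shares follow from the values above and were not tested.

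Of all 15466 genes tested, edgeR with no passage term called 1.27 percent (197) between 10 µM and DMSO. It likewise called 1.27 percent between 10 and 0.5 µM. With passage as a block these counts were 2849 and 2733, and leaving out 1 library gave 38 to 171 for 10 µM against DMSO, lowest without DMSO of passage 12. Nothing is read from that share for the members, since Adm was chosen there. Of 20 other genes that low oxygen is known to induce, 11 passed the test upwards between 10 µM and DMSO and 18 had a positive value, with a median log2 fold change of 1.26 against -0.01 over all genes. The count was 18 with passage as a block and 7 without DMSO or without 10 µM of passage 12. Their summed level was 4130 to 5170 CPM with DMSO, 4040 to 5410 CPM at 0.5 µM and 7510 to 8370 CPM at 10 µM. That list was written with the rise of such genes in these libraries already known and is no independent evidence. Of 34 tested genes of the wider adrenomedullin pathway, 1 passed the test: Pde4b, a phosphodiesterase that breaks down cyclic AMP, rose by 1.31 ± 0.23 on the log2 scale (SE; edgeR adjusted p = 0.0295). That call was lost without DMSO of passage 12 or 14 and without 10 µM of passage 12 or 18 (adjusted p 0.104 to 0.139). With passage as a block 7 pathway genes passed as higher and 4 as lower. Of the 14 endothelial markers edgeR called 0, with a median of 0.02, and with passage as a block it called 3 higher and 2 lower.

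At 0.5 µM, a comparison that shares the DMSO libraries with the one above, no member passed the test. edgeR called 0 percent of 15466 genes, with 55 at an unadjusted p under 0.05 and 0 called by DESeq2, and with passage as a block it called 1. The log2 fold changes were 0.13 for Adm (95% interval -0.56 to 0.83), 0.08 for Calcrl (-0.77 to 0.94), 0.06 for Ramp2 (-0.36 to 0.48) and 0.18 for Ramp3 (-0.94 to 1.30), each with an adjusted p of 1. The fit held no passage term, so these intervals include the spread between passages and are no measure of the spread of the fold within passages. Within passages the fold of Adm was 0.999, 1.20 and 1.02 at passages 12, 14 and 18, and that of Ramp3 was 1.25, 1.05 and 1.14.

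Passage gave calls among the members. The comparisons took treatment as a term over all 9 libraries. Each passage is 1 culture history, so the p-values cover only the spread between libraries of a passage. Between passages 18 and 12, where 33.9 percent of 15949 genes were called, all 4 tested members passed. Calcrl rose by 0.81 ± 0.07 on the log2 scale (SE; edgeR adjusted p = 1.44e-09), Ramp2 by 0.50 ± 0.06 (3.96e-07) and Ramp3 by 1.25 ± 0.17 (0.00154). Adm fell by 0.43 (SE 0.11; edgeR adjusted p = 0.00364). In every dose group the passage 18 library was the highest of 3 for Calcrl, Ramp2 and Ramp3 and the lowest of 3 for Adm. How many of all genes keep such an order in every dose group was not counted. The Adm call was lost without the 3 libraries at 10 µM (log2 fold change -0.31, adjusted p = 0.0711) and without the 10 µM library of passage 12 alone (-0.24, adjusted p = 0.132).

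Between passages 18 and 14, with 32.1 percent of genes called, the same directions held. Calcrl rose by 1.05 ± 0.07 (SE; edgeR adjusted p = 1.29e-11), Ramp2 by 0.34 ± 0.06 (8.23e-05) and Ramp3 by 1.13 ± 0.17 (0.00231), while Adm fell by 0.84 (SE 0.10; adjusted p = 2.15e-06). Between passages 14 and 12, with 20.8 percent called, Adm rose by 0.42 ± 0.10 (SE; edgeR adjusted p = 0.00558) and Calcrl fell by 0.24 (SE 0.07; adjusted p = 0.0168). Ramp2 (0.16 ± 0.06, adjusted p = 0.0705) and Ramp3 (0.12 ± 0.18, adjusted p = 0.729) did not pass. The last comparison hangs on single libraries. Without 1 of the 0.5 µM libraries of passage 12 or 14, or without DMSO of passage 12, the Adm call was lost, with an adjusted p of 0.0659 to 0.0856, and without 1 of DMSO of passage 12 or 14, or 0.5 µM of passage 14, the Calcrl call was lost, at 0.132 to 0.228. Ramp3 passed upwards without the 3 libraries at 10 µM (0.425, edgeR adjusted p = 0.00301) and without the 10 µM library of passage 12 alone (0.41, adjusted p = 0.00487), and had -0.04 without DMSO of passage 12. Ramp2 passed without those same 3 libraries (0.18, adjusted p = 0.0275), without the 10 µM library of passage 12 (0.20, adjusted p = 0.0438) and with DESeq2 (0.15, adjusted p = 0.0493).

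The endothelial markers moved with passage as well. Of 14, 13 passed upwards between passages 18 and 12 (median log2 fold change 0.34, against -0.003 over all genes), and 10 passed upwards and 1 downwards between passages 18 and 14 (median 0.35). Between passages 14 and 12, 4 passed upwards and 4 downwards. The part of this difference in the values of Calcrl and Ramp2 was not tested. Vps25 was at 0.02 ± 0.08 between passages 18 and 12 (SE; edgeR adjusted p = 0.85), rose by 0.29 ± 0.08 between 18 and 14 (adjusted p = 0.0056) and fell by 0.26 between 14 and 12 (SE 0.08; adjusted p = 0.0177), and its part in the Ramp2 values was not tested.

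**Figure D4:**
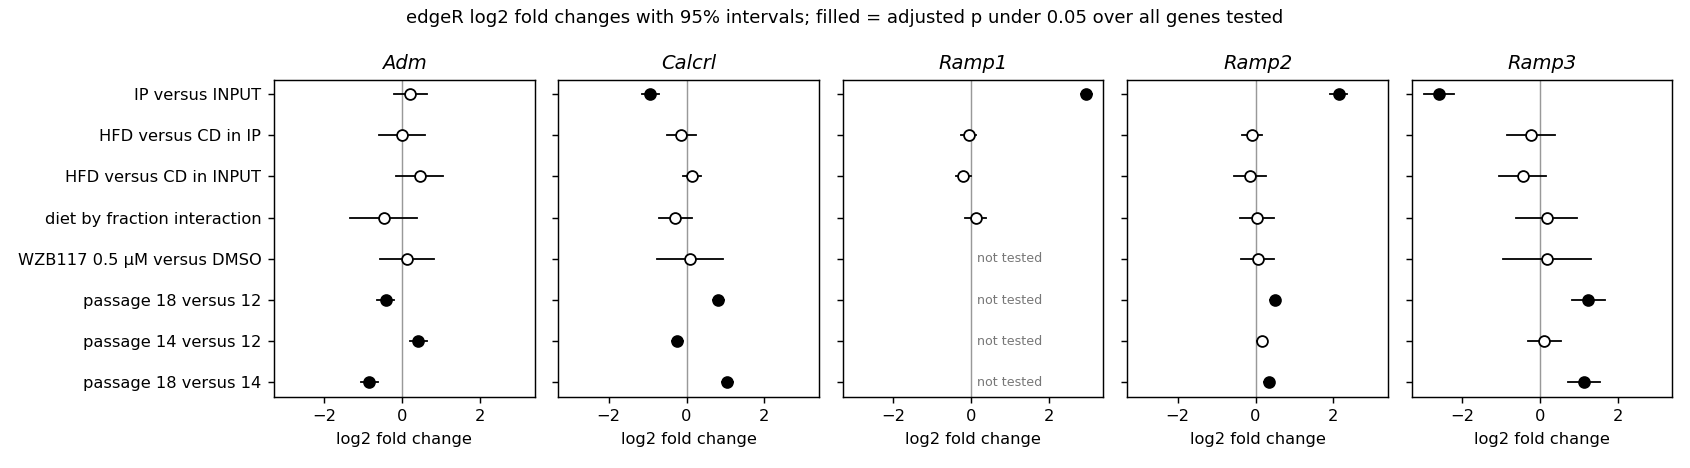
edgeR log2 fold changes of each member with 95% intervals in the comparisons that did not choose it; filled points passed an adjusted p under 0.05 over all genes tested, and Ramp1 was too scarce in cEND cells to test. The 4 called values of IP against INPUT range from -2.60 for Ramp3 to 2.96 for Ramp1, the diet and 0.5 µM intervals all cross 0 except that of Ramp1 in INPUT, and passage 18 is higher than 12 and 14 for Calcrl, Ramp2 and Ramp3.

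The wider pathway was read from 48 further genes in 5 lists. In IP against INPUT 45 could be tested, of which 14 passed upwards and 29 downwards, 95.6 percent against the 83.7 percent of all genes. Among the related peptides only Calca, which encodes calcitonin and calcitonin gene-related peptide, passed the filter, and it fell by 0.68 (SE 0.20; edgeR adjusted p = 0.00267), a call that was lost within the HFD libraries alone (-0.39, adjusted p = 0.122). Of other receptors, Calcr, the calcitonin receptor and partner of the same RAMPs, fell by 1.03 (SE 0.12; adjusted p = 1.34e-08), and Gpr182, an endothelial receptor related to chemokine scavengers, fell by 1.01 (SE 0.16; adjusted p = 2.04e-06). Ackr3, a decoy receptor that also binds adrenomedullin, rose by 2.31 ± 0.11 (SE; adjusted p = 2.2e-15), and Crcp, a component that couples the receptor to its G protein, fell by 0.44 (SE 0.05; adjusted p = 2e-08).

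Enzymes that finish or break down the peptide split. Pam, which adds the terminal amide that adrenomedullin needs, fell by 0.65 in IP (SE 0.06; edgeR adjusted p = 1.53e-09), and Mme, the peptidase neprilysin, fell by 1.66 (SE 0.09; adjusted p = 3.11e-15). Ide, the insulin-degrading enzyme, rose by 1.38 ± 0.05 (SE; adjusted p = 3.35e-19) and Ece1, endothelin-converting enzyme, by 1.21 ± 0.05 (adjusted p = 6.94e-17).

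Of 25 genes of Gs and cyclic AMP signalling, 6 passed upwards and 17 downwards in IP, with a median of -0.30. The cyclic AMP-regulated exchange factors pointed in opposite directions, since Rapgef3 (Epac1) rose by 1.87 ± 0.06 (SE; edgeR adjusted p = 5.55e-19) and Rapgef4 (Epac2) fell by 1.86 (SE 0.05; adjusted p = 2.33e-21). Of 10 genes of receptor desensitisation and recycling, 5 passed each way. Slc9a3r1, a scaffold that binds the tail of human RAMP3, rose by 3.02 ± 0.06 (SE; adjusted p = 6.11e-24), and the arrestin Arrb1 by 1.30 ± 0.04 (adjusted p = 5.24e-19).

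After HFD none of the 45 pathway genes tested in IP and none of the 44 tested in INPUT passed the edgeR test, and the alternatives gave at most 1 in IP. Between passages 18 and 12 of cEND cells 15 of 34 passed upwards and 8 downwards, 67.6 percent against the 33.9 percent of all genes. Over the settings tried, 10 to 17 passed upwards and 5 to 8 downwards. The share was 44.1 percent against 32.1 percent of all genes between passages 18 and 14. It was 52.9 percent against 20.8 percent between passages 14 and 12. From passage 12 to 18 Gpr182 rose by 2.54 ± 0.13 (SE; edgeR adjusted p = 4.67e-14), Pam by 0.51 ± 0.06 (adjusted p = 3.51e-07), Arrb1 by 0.60 ± 0.06 (adjusted p = 1.22e-08) and Slc9a3r1 by 1.23 ± 0.18 (adjusted p = 4.04e-06). Adcy4, an adenylyl cyclase, rose by 0.48 ± 0.06 (adjusted p = 9.22e-07), and Pde3b, a phosphodiesterase, fell by 0.59 (SE 0.08; adjusted p = 2.36e-06).

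The genes whose log2 CPM followed each member most closely were named as a description, over libraries that share passage and dose or fraction, and with no p. Over the 9 cEND libraries, among 10610 candidate genes, Adm was followed by Plcxd2 (Pearson r = 0.995), Higd1a (0.992), Gclm (0.989), Ppp1r15a (0.986) and Asph (0.985), of which Higd1a was on the hypoxia list. Ramp3 was followed by Nmnat2, Tmem252, Fbxl20, Cyth1 and Slc48a1 (0.992 to 0.984), Calcrl by Lama4, Pald1, Chst15, Zbtb46 and Lims1 (0.989 to 0.982) and Ramp2 by Zdhhc18, Eln, Rbms3, Traf5 and Scly (0.996 to 0.985). Between members r was 0.815 for Calcrl with Ramp2, 0.517 for Ramp2 with Ramp3 and 0.283 for Calcrl with Ramp3, and that of Adm was 0.574 with Ramp3, -0.327 with Ramp2 and -0.597 with Calcrl. Over the 16 hypothalamus libraries, which include both IP and INPUT, Ramp1 was followed by Mlc1, Pon2, Gpr37l1, Fads2 and Fads1 (0.999 to 0.998), Ramp2 by Igsf11, Bmpr1a, Luzp2, Phactr3 and Pla2g7 (0.993 to 0.992), Ramp3 by Cpne9, Syt7, Adarb1, Adcy1 and Kcnj9 (0.988 to 0.986) and Calcrl by Six6, Svop, Gpr85 and Hcrtr2 (0.979 to 0.968). Within the 8 IP libraries alone Ramp1 was followed by Ptpmt1, Atraid, Dnajc3, Elovl5 and Sap30l (0.986 to 0.954), with none of its genes from the 16 libraries among them.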

How the data were processed

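The files held estimated counts per Ensembl gene, as deposited by the authors with no scaling to a common total; 17.349 and 19.778 percent of values in the hypothalamus and cEND tables were not whole and were rounded before fitting. The build is GRCm38 per the submitters' processing notes, while aligner, counting program, strand setting and treatment time are not given in the sources used here. Gene names, loci and exon lengths came from GENCODE M21. edgeR 4.0.16 in R 4.3.3 (TMM, filterByExpr, robust quasi-likelihood, 2-sided) was run on all genes of a table, with Benjamini-Hochberg adjustment over all genes tested and a threshold of 0.05. SE is the log2 fold change divided by the root of F. CPM used TMM factors of all libraries of a table. DESeq2 1.42.0 and the other alternatives are under the closing section. The edgeR step was tested on simulated data. Counting error alone sets the limits given for counts of 0 (3 counts). The same replicate number marks the same passage in cEND cells, where same-passage deviations correlated in every pair of groups (r 0.474 to 0.828), so passage pairs those libraries. The main dose fits did not use that pairing, and the alternative with passage as a block did. Closest libraries of a group differed by a chi-square per degree of freedom of at least 8.46, and none was counted as a duplicate.

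The members, lists, tests and the rule for named genes were chosen with earlier results of these data known. By that rule all members are named, up to 4 genes of smallest adjusted p per pathway list and comparison (every gene in the smallest lists), and the 5 genes of highest Pearson r with a member among genes with an average log2 CPM (prior count 2) of at least 1. Of the genes this rule gives, 2 are not reported here.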

Additional observations from a re-analysis of the deposited data

Results flagged for a closer look

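Ramp1 in HFD INPUT stood at 11.94 CPM in pool 4, apart from the other 3 pools at 10.3 to 10.6 CPM. In 20 groups of 4 pools checked in this way, chance flags about 1 in 20.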

How the results depend on the processing

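The 4 calls of IP against INPUT held under all 23 alternatives, with log2 fold changes of 2.88 to 3.01 for Ramp1, 2.10 to 2.21 for Ramp2, -1.09 to -0.82 for Calcrl and -2.71 to -2.45 for Ramp3; Adm was at -0.045 within HFD libraries alone. At 0.5 µM the passage block gave no member a call. In hypothalamus the shared numbers did not meet the rule for pairing (lowest same-number r -0.038, between CD IP and HFD IP). Between INPUT and IP the same-number r was 0.065 to 0.276 in CD and -0.036 to 0.233 in HFD. For different numbers it was -0.169 to 0.018 in CD and -0.168 to 0.129 in HFD. A replicate block on the shared numbers gave 52 calls for diet in IP, 43 in INPUT and 1 for the interaction, with no member called.

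Counts of genes called depended on settings, and the cause was not tested. The main dose fits left differences between passages in the residual spread, and the passage block took them out. For diet in IP (14), DESeq2 gave 183, no filter 398, 1 fit of 16 libraries 121, and leaving out 1 library 5 to 50 (omitting HFD IP pools 1 to 4 in turn gave 6, 50, 9 and 8; omitting CD IP pools 1, 3 and 4 gave 33, 8 and 5). For diet in INPUT (6) they were 50, 116, 2 and 2 to 17 (2 without CD INPUT pool 3 or HFD INPUT pool 4, 12 without CD INPUT pool 4 and 17 without HFD INPUT pool 2). For the interaction (0) they were 2 with DESeq2, 1 with no filter and 0 to 1 with 1 library left out (1 without CD IP pool 1, 3 or 4, or CD INPUT pool 2). For 10 µM against DMSO (197), DESeq2 gave 504, the passage block 2849 and leaving out 1 library 38 to 171 (42 and 38 without 10 µM or DMSO of passage 12, 61 without DMSO of passage 14, 103 and 112 without 10 µM or DMSO of passage 18). For 10 against 0.5 µM (197) they were 483, 2733 and 33 to 152 (33 and 34 without 10 or 0.5 µM of passage 12, 54 without 0.5 µM of passage 14 and 92 without 10 µM of passage 18). For 0.5 µM the passage block gave 1. With no treatment term, passage 18 against 12 gave 3269, 14 against 12 gave 1623 and 18 against 14 gave 2924 calls, and the calls of Adm and Ramp3, and that of Calcrl between 14 and 12, were lost; leaving out 1 library gave 2084 (DMSO of passage 12) to 2884 for 14 against 12, with 2102 without 0.5 µM of passage 14. Ramp3 between passages 14 and 12 was -0.037 with no treatment term.

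Values with no call also changed sign when 1 library was left out, within these ranges: in IP after HFD, Adm -0.24 to 0.15 and Ramp1 -0.13 to 0.029; in INPUT, Ramp2 -0.21 to 0.004; in the interaction, Ramp2 -0.11 to 0.12 and Ramp3 -0.019 to 0.49; at 0.5 µM, Adm -0.24 to 0.39, Calcrl -0.38 to 0.43, Ramp2 -0.088 to 0.25 and Ramp3 -0.39 to 0.75; between passages 14 and 12, Ramp3 -0.042 to 0.41. Depth limits Adm and Ramp3 in IP and Ramp1 in cEND cells.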
